A study of Mus musculus with 10 samples.

Results

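The Nrf2 antioxidant response genes described here are 10 genes that encode the transcription factor Nrf2, its inhibitor, and enzymes and a transporter known as its targets. They are *Nfe2l2*, *Keap1*, *Slc7a11*, *Gclc*, *Gclm*, *Nqo1*, *Hmox1*, *Txnrd1*, *Srxn1* and *Gpx2*. They were taken by gene symbol from the table that the authors deposited, where all 10 were found among 56691 genes. All 10 also passed the filter on low counts, as did 16545 genes in total. RNA was sequenced from the colon of 10 male C57BL/6 mice aged 8 weeks. In the DSS group, 5 mice had drunk water with 3% dextran sulfate sodium (DSS), a polymer that injures the colon lining, for 7 days. In the ceAF group, 5 mice had drunk the same 3% DSS for 7 days and were then given chick early amniotic fluid (ceAF) at 15 mL/kg by gavage for 10 days. Both groups therefore carried the DSS injury. Healthy mice and mice given mesalazine were not analysed here, so each value compares ceAF after DSS with DSS alone. The study weighed its DSS mice beside the treated mice after DSS ended, but the day on which each group's colon was taken is not given in the sources used here. The time since DSS was therefore not compared between the groups, and its part in the values was not tested. Counts on genes ranged from 16275884 to 19901549 per mouse in the DSS group and from 14676471 to 18811795 in the ceAF group.

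Nrf2 is held in the cytoplasm by Keap1, which presents it for ubiquitination and breakdown. Oxidants and electrophiles modify cysteines of Keap1, Nrf2 then accumulates, pairs with small Maf proteins and binds antioxidant response elements in the DNA near its target genes. The targets supply glutathione, thioredoxin and NADPH, remove quinones and break down heme, and in the gut they are active in the epithelium that faces oxidants of microbes and of inflammatory cells.

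The tissue carried the marks of colon epithelium. The mucin gene *Muc2* lay between 3294 and 8877 CPM (read counts scaled to the size of the library, TMM-normalized), and *Epcam* between 1573 and 2443 CPM in the 10 mice. Of the 5 squamous markers, *Krt13* reached 6.03 CPM and *Krt14* 2.21 CPM, both in ceAF-4, and *Krt5*, *Krt4* and *Trp63* did not exceed 0.359 CPM in any mouse. Several libraries stood apart. DSS-1 had the highest level of the neutrophil gene *S100a9*, at 697 CPM, against 0.305 to 84.6 CPM in the other 9 mice. ceAF-1 had the highest level of the positional gene *Hoxb6*, at 91.0 CPM, and the lowest of *Hoxa13*, at 3.13 CPM, where the other 9 mice lay between 41.4 and 97.7 CPM. ceAF-4 had the lowest score of 7 tested *Hox* genes, the mean of their log2 CPM relative to each gene's mean over the mice, at -2.33, where the other 9 mice lay between -1.01 and 1.65. Over all genes, the chi-square per gene between the counts of a pair of mice was 75.2 to 87.3 for DSS-5 with the other DSS mice and 102 to 133 for ceAF-1 with the other ceAF mice. It was 42.2 to 47.3 for DSS-1 with DSS-2 to DSS-4, and 13.2 to 19.5 among DSS-2 to DSS-4. *Hox* genes differ along the length of the gut, and the sampled position of each piece is not given in the sources used here.

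Between ceAF and DSS, no member passed the test. With edgeR's quasi-likelihood test and Benjamini-Hochberg adjustment over 16545 genes, 0 of 10 members and 0 genes in total (0.0%) had an adjusted p under 0.05, and the lowest adjusted p of any gene was 0.656. DESeq2 called 26 genes, voom with quality weights 0, and limma on log2 FPKM 1 or 5 by pseudocount, and none of these was a member. At an unadjusted p under 0.05, 1 of 10 members was counted, *Gclm*, where the share of all tested genes was 6.93% (1146 genes). That member was higher in ceAF, a direction that 3.26% of tested genes took at this threshold, and 0 of 10 members were lower, against 3.67%. The count of members at this threshold was therefore near that of the whole table. The groups overlapped for all 10 members, while 1.24% of tested genes had groups that did not overlap. Fitted fold changes were above 0 for 7 members and below 0 for 3, with a median log2 fold change of 0.06 over the members and 0.01 over all tested genes. The median of the members was -0.04 without ceAF-1 and 0.17 without both DSS-1 and ceAF-1. In the fit without both mice, a choice made after seeing the data, 0 genes were called by edgeR and 2 of 10 members, *Gclm* and *Slc7a11*, had an unadjusted p under 0.05, where the share of all tested genes was 8.76%.

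T cell and neutrophil markers had fold changes below 0 in ceAF, and with edgeR and all 10 mice none of them had an adjusted p under 0.05. All 7 T cell markers were below 0, and 6 of 7 had an unadjusted p under 0.05 by edgeR. DESeq2 called *Cd3d* and *Cd3g*, subunits of the T cell receptor complex, and edgeR without DSS-5 called *Cd3g*. The summed level of the 7 T cell markers was 84.4, 86.3, 86.5, 90.8 and 32.5 CPM in DSS-1 to DSS-5 and 29.4, 46.3, 38.4, 20.2 and 26.1 CPM in ceAF-1 to ceAF-5, with no marker at 0. Per length *Trac* was the most abundant of them in both groups, at 16.7 FPKM (counts scaled by exonic length and library total) in DSS and 7.0 FPKM in ceAF. Among 6 tested neutrophil markers, all were below 0, and 5 had an unadjusted p under 0.05 by edgeR, a count that rested on DSS-1. Without that mouse it was 1, and the median log2 fold change of the 6 was -1.52 in place of -3.96. The count was also 0 with voom and with the replicate block, 1 without both DSS-1 and ceAF-1, and 1 and 2 with the FPKM fits (pseudocounts 1 and 0.1), and with DESeq2 2 of the 3 markers given a p. The 8 neutrophil markers summed to 1840, 124, 306, 201 and 551 CPM in DSS-1 to DSS-5 and to 21.1, 249.6, 184, 131 and 213 CPM in ceAF-1 to ceAF-5. Per length *Ly6g* was the most abundant of them in all 5 ceAF mice and in DSS-2, DSS-4 and DSS-5, and *S100a9* in DSS-1, at 1387 FPKM, and in DSS-3, at 166 FPKM. *Ly6g* was the tested marker that did not reach an unadjusted p under 0.05 (0.274 by edgeR). Of the sums above, *Ly6g* alone gave 229, 110, 128, 184 and 482 CPM in DSS-1 to DSS-5. In ceAF-1 to ceAF-5 it gave 19.4, 237, 172, 91.8 and 194 CPM. *Ly6g* did not rank these mice as the other markers did. Per length it was higher in DSS-5 (519 FPKM) than in DSS-3 (140 FPKM), while each other marker was lower in DSS-5. Of the 8 markers 2 were at 0 counts in ceAF-1 and 1 in ceAF-5. In bulk tissue, fewer cells of a type and less RNA per cell cannot be told apart. The part of these markers in the values of the members was not tested.

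*Nfe2l2* (ENSMUSG00000015839, chromosome 2), the gene of Nrf2 itself, stood at 185, 241, 268, 267 and 180.0 CPM in DSS-1 to DSS-5 and at 389.8, 195, 239, 223 and 161 CPM in ceAF-1 to ceAF-5. The ceAF group held both the highest and the lowest mouse, and 4 of its 5 mice lay below the DSS median. The log2 fold change was 0.08 (SE 0.227), with an edgeR adjusted p of 0.973 and an exact permutation p of 0.921. Without ceAF-1 it was -0.16.

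*Keap1* (ENSMUSG00000003308, chromosome 9), the inhibitor, followed the same mice. It stood at 57.5, 64.5, 72.3, 73.2 and 49.2 CPM in the DSS group and at 95.2, 54.3, 79.3, 46.7 and 47.7 CPM in the ceAF group, each from mouse 1 to mouse 5. The highest values were those of ceAF-1 and ceAF-3, and the groups overlapped. The log2 fold change was 0.03 (SE 0.211), with an edgeR adjusted p of 0.988, and without ceAF-1 it was -0.15.

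Both regulators were high in the mice high in *Hoxb6*, which is set beside them after its values were seen. *Hoxb6* was at 1.27, 25.3, 36.6, 22.4 and 0.960 CPM in DSS-1 to DSS-5 and at 91.0, 0.846, 17.4, 2.98 and 0.880 CPM in ceAF-1 to ceAF-5. In the 5 mice with *Hoxb6* at 17.4 CPM or more, *Nfe2l2* ranged from 239 to 389.8 CPM and *Keap1* from 64.5 to 95.2 CPM. In the other 5 mice *Nfe2l2* ranged from 161 to 223 CPM and *Keap1* from 46.7 to 57.5 CPM. These ranges did not overlap for these 2 members, as for 2.61% of all tested genes, and they overlapped for the other 8. Because *Hoxb6* fell into separate clusters of mice, no correlation with it alone was computed. The score of 7 tested *Hox* genes, which includes it, was correlated with the members after removal of the group means. It had r = 0.776 with *Keap1* (permutation p = 0.0238, adjusted 0.182) and r = 0.513 with *Nfe2l2* (permutation p = 0.201, adjusted 0.467). With *Hoxb6* as a covariate of the fit, the log2 fold change was 0.12 (SE 0.104) for *Nfe2l2* and 0.06 (SE 0.113) for *Keap1*.

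**Figure D1:**
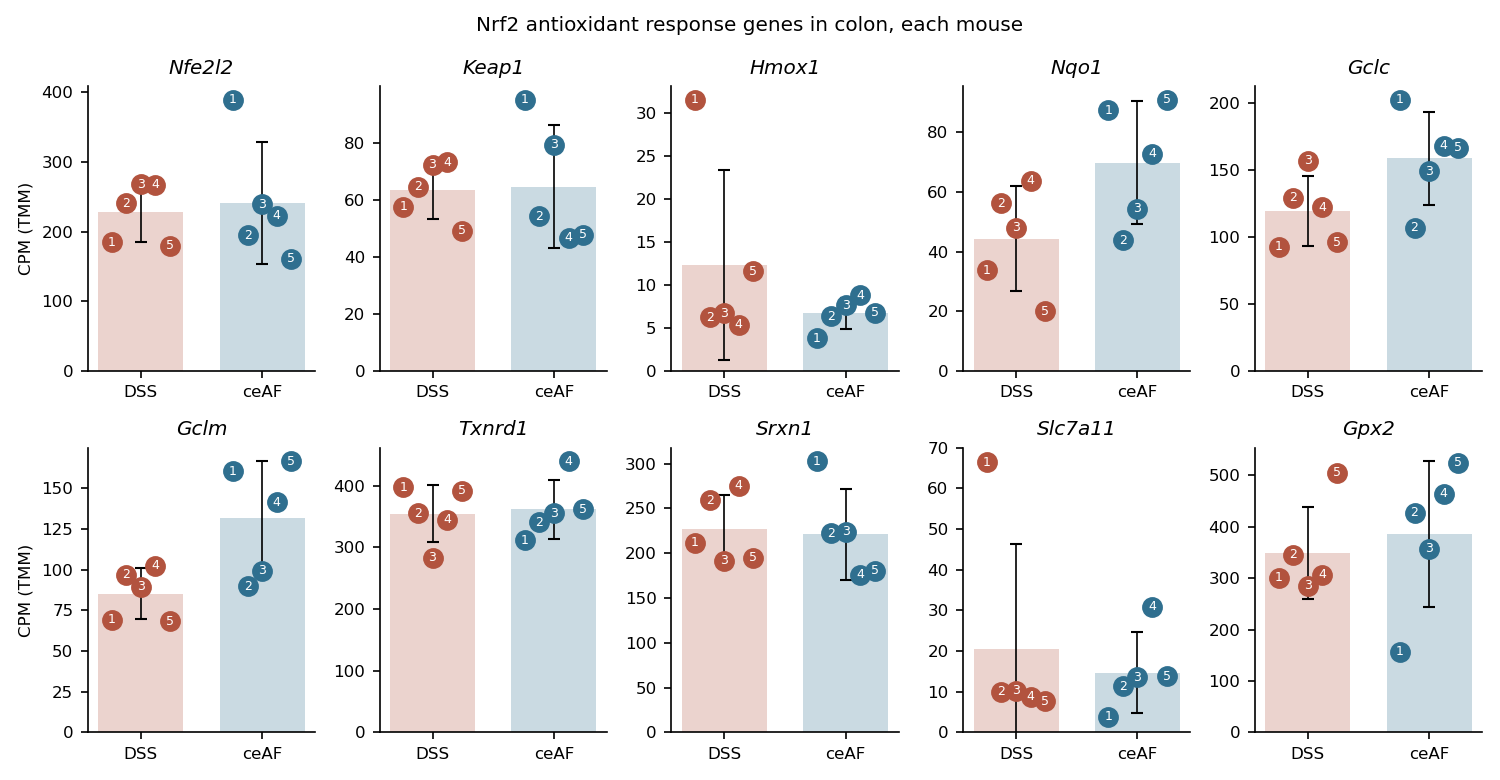
Level of each of the 10 genes in every mouse, in TMM-normalized CPM on linear axes that start at 0. Circles are mice with their number, bars are group means and error bars are 1 SD over 5 mice, drawn no lower than 0. All 5 ceAF mice lay above the DSS median for *Gclm*, while the highest values of *Hmox1* and *Slc7a11* were those of DSS-1.

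Glutathione is made in the cell from cysteine, glutamate and glycine, and its synthesis begins with cystine import. *Slc7a11* (ENSMUSG00000027737, chromosome 3) encodes the cystine and glutamate exchanger. It stood at 66.5, 9.94, 10.2, 8.71 and 7.68 CPM in DSS-1 to DSS-5 and at 3.81, 11.4, 13.6, 30.9 and 13.8 CPM in ceAF-1 to ceAF-5. DSS-1 was far above the other DSS mice, while 4 of 5 ceAF mice lay above the DSS median. The log2 fold change was -0.48 (SE 0.689), with an edgeR adjusted p of 0.928 and an exact permutation p of 0.825. Its sign rested on DSS-1: without that mouse the log2 fold change was 0.69, and without both DSS-1 and ceAF-1 it was 0.93, with an unadjusted p of 0.0134 and an adjusted p of 0.521 by edgeR. Over the alternatives that adjusted p ranged from 0.521 to 1.0.

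Glutamate-cysteine ligase carries out the rate-limiting step of the synthesis. *Gclm* (ENSMUSG00000028124, chromosome 3), its modifier subunit, stood at 69.1, 96.7, 89.4, 102 and 68.1 CPM in DSS-1 to DSS-5 and at 160.5, 89.9, 99.3, 141 and 167 CPM in ceAF-1 to ceAF-5. All 5 ceAF mice lay above the DSS median and 3 of them above every DSS mouse, while ceAF-2 and ceAF-3 lay within the DSS range. The mean was 85.1 ± 15.7 CPM in DSS and 132 ± 35.1 CPM in ceAF (SD, n = 5 each). *Gclm* had a log2 fold change of 0.63 (SE 0.197), 1.55-fold, with an unadjusted p of 0.00861 and an adjusted p of 0.656 by edgeR and an exact permutation p of 0.0476. The unadjusted p was under 0.05 whichever mouse was left out, 0.0244 at the highest, and was 0.142 under voom with quality weights, where the log2 fold change was 0.26.

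*Gclc* (ENSMUSG00000032350, chromosome 9), the catalytic subunit, stood at 92.8, 129, 157, 122 and 96.0 CPM in DSS-1 to DSS-5 and at 202, 107, 149, 168 and 166 CPM in ceAF-1 to ceAF-5. As for *Gclm*, 3 ceAF mice lay above every DSS mouse, and ceAF-2 was the lowest of its group. *Gclc* had a log2 fold change of 0.41 (SE 0.188), 1.33-fold, with an unadjusted p of 0.0520 and an adjusted p of 0.720 by edgeR and an exact permutation p of 0.0873. The unadjusted p was under 0.05 without DSS-3 or without ceAF-2, 0.00997 at the lowest, and was 0.13 at the highest with 1 mouse left out. Under voom with quality weights the log2 fold change of *Gclc* was 0.09 (unadjusted p = 0.605), and without both DSS-1 and ceAF-1 it was 0.23 (unadjusted p = 0.252 by edgeR). Per length, *Gclc* exceeded *Gclm*: the ratio of their FPKM values was 2.35 ± 0.35 in DSS and 2.05 ± 0.302 in ceAF (SD, n = 5 each; exact permutation p = 0.159).

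*Nqo1* (ENSMUSG00000003849, chromosome 8) encodes the quinone reductase that is widely used as a readout of Nrf2. It stood at 33.8, 56.2, 48.1, 63.8 and 20.1 CPM in DSS-1 to DSS-5 and at 87.5, 43.8, 54.3, 72.8 and 91.0 CPM in ceAF-1 to ceAF-5. Here too ceAF-1, ceAF-4 and ceAF-5 lay above every DSS mouse, and DSS-5 was the lowest of all. The share of counts on 37 mitochondrial genes was 5.34%, 5.34%, 5.45%, 6.54% and 5.06% in DSS-1 to DSS-5 and 9.66%, 5.64%, 4.53%, 7.24% and 9.74% in ceAF-1 to ceAF-5. It was thus also highest in ceAF-1, ceAF-4 and ceAF-5, the mice above every DSS mouse for *Nqo1*, *Gclc* and *Gclm*, and its part in these values was not tested. The positional gene *Hoxb13* was at 6.18 CPM in ceAF-1 and 10.2 CPM in ceAF-4. Every other mouse lay between 76.3 and 214.8 CPM, with ceAF-5 at 184.6 CPM. The part of sampled position in these values was not tested. The mean was 44.4 ± 17.6 CPM in DSS and 69.9 ± 20.5 CPM in ceAF (SD, n = 5 each). *Nqo1* had a log2 fold change of 0.65 (SE 0.303), 1.57-fold, with an unadjusted p of 0.0538 and an adjusted p of 0.720 by edgeR and an exact permutation p of 0.0794. With 1 mouse left out the unadjusted p ranged from 0.0240 to 0.124, and it was under 0.05 without DSS-2, DSS-4, ceAF-2 or ceAF-3. Under voom with quality weights the log2 fold change of *Nqo1* was 0.18 (unadjusted p = 0.476), and without both DSS-1 and ceAF-1 it was 0.48 (unadjusted p = 0.191 by edgeR). With *Hoxb6* as a covariate the unadjusted p was 0.0151 for *Nqo1*, 0.00578 for *Gclc* and 0.00434 for *Gclm*, and the adjusted p by edgeR was 0.497, 0.473 and 0.473. Over the alternatives the adjusted p ranged from 0.497 to 1.0 for *Nqo1*, from 0.473 to 1.0 for *Gclc* and from 0.307 to 1.0 for *Gclm*.

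*Hmox1* (ENSMUSG00000005413, chromosome 8) encodes heme oxygenase 1, which breaks heme down to biliverdin, iron and carbon monoxide. It stood at 31.5, 6.25, 6.71, 5.38 and 11.6 CPM in DSS-1 to DSS-5 and at 3.81, 6.38, 7.62, 8.77 and 6.76 CPM in ceAF-1 to ceAF-5. DSS-1 was the highest and ceAF-1 the lowest of the 10 mice, and 3 of 5 ceAF mice lay above the DSS median. *Hmox1* had a log2 fold change of -0.88 (SE 0.477), with an edgeR adjusted p of 0.745 and an exact permutation p of 0.333. Without DSS-1 it was -0.16, and under voom with quality weights -0.08. Without both DSS-1 and ceAF-1 it was -0.02 (unadjusted p = 0.936 by edgeR). Without DSS-4 it was -1.07 with an unadjusted p of 0.0467 by edgeR. DSS-1, the mouse with the highest neutrophil sum of 1840 CPM, thus set the size of the difference in *Hmox1* and the sign in *Slc7a11*, and the part of its cell makeup was not tested.

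*Txnrd1* (ENSMUSG00000020250, chromosome 10) encodes the cytosolic thioredoxin reductase, which keeps thioredoxin reduced with NADPH. It varied least of the 10, from 283 to 398 CPM in DSS and from 312 to 440.0 CPM in ceAF, a span of 1.56-fold over the 10 mice. Its log2 fold change was 0.03 (SE 0.127), with an edgeR adjusted p of 0.981, and 2 SE on each side reached from -0.22 to 0.28. *Srxn1* (ENSMUSG00000032802, chromosome 2) encodes sulfiredoxin, which repairs overoxidized peroxiredoxins. It ranged from 192 to 276 CPM in DSS and from 176 to 303 CPM in ceAF, with ceAF-1 the highest, and its log2 fold change was -0.03 (SE 0.169; edgeR adjusted p = 0.982). For both genes the difference was smaller than the spread between mice, and the sign turned when some mice were left out.

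*Gpx2* (ENSMUSG00000042808, chromosome 12) encodes the glutathione peroxidase of gut epithelium. It stood at 301, 346, 285, 307 and 504 CPM in DSS-1 to DSS-5 and at 157, 427, 357, 464 and 524 CPM in ceAF-1 to ceAF-5. In ceAF 4 of 5 mice lay above the DSS median, while ceAF-1 was the lowest of all 10 mice. *Gpx2* had a log2 fold change of 0.15 (SE 0.285), with an edgeR adjusted p of 0.953 and an exact permutation p of 0.881. Without ceAF-1 it was 0.35.

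Compared per length, the 10 genes spanned a wide range of levels. The mean FPKM over the 10 mice was highest for *Gpx2*, at 117 ± 39.4, followed by *Srxn1* at 78.7 ± 11.3 and *Nfe2l2* at 61.2 ± 14.0 (SD, n = 10). Next came *Txnrd1* at 50.7 ± 7.88, *Gclc* at 36.8 ± 8.99, *Nqo1* at 36.6 ± 14.4, *Gclm* at 17.2 ± 5.66 and *Keap1* at 13.5 ± 2.73 FPKM. *Hmox1*, at 5.5 ± 4.81 FPKM, and *Slc7a11*, at 1.3 ± 1.4 FPKM, were the lowest. Neighbours in this order were compared within mice by exact sign-flip tests on log2 FPKM, adjusted over 9 pairs. The pairs *Gpx2* and *Srxn1* (adjusted p = 0.0996), *Nfe2l2* and *Txnrd1* (0.159), *Gclc* and *Nqo1* (0.58) and *Gclm* and *Keap1* (0.113) did not differ beyond their spread in these exact tests. The other 5 pairs had an adjusted p between 0.00877 and 0.0247. The transcript of Nrf2 thus stood 4.54-fold above that of its inhibitor by mean FPKM, and the cystine exchanger was the least abundant member.

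The members did not vary as 1 block. After removal of the group means, log2 CPM over the 10 mice was compared for all 45 pairs by Pearson's r and Spearman's rho, with exact permutation of mice within groups and adjustment over the 45 pairs. An adjusted p under 0.05 for r was reached by 3 pairs. *Nqo1* and *Gclm* had r = 0.889 (permutation p = 6.94e-05, the smallest these permutations can give, adjusted 0.00312) and rho = 0.855 (permutation p = 0.000347, adjusted 0.0156), with r = 0.934 without DSS-5 and ceAF-2, the mice farthest from the median. *Nfe2l2* and *Keap1* had r = 0.875 (permutation p = 0.00208, adjusted 0.0312) and rho = 0.782 (permutation p = 0.00521, adjusted 0.0782), with r = 0.741 without ceAF-1 and ceAF-5. *Keap1* and *Gpx2* ran in opposite directions, with r = -0.878 (permutation p = 0.00208, adjusted 0.0312), rho = -0.806 (permutation p = 0.00444, adjusted 0.0782) and r = -0.884 without ceAF-1 and ceAF-3. The mice with high *Nfe2l2* and *Keap1* were those with high *Hoxb6*, given above.

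Other pairs missed the adjusted threshold. *Gclc* and *Gclm*, the subunits of the ligase, had r = 0.813 (permutation p = 0.00542, adjusted 0.0531) and rho = 0.636 (permutation p = 0.0561, adjusted 0.204), and r = 0.646 without DSS-1 and ceAF-2. *Nfe2l2* and *Gpx2* had r = -0.881 (permutation p = 0.0059, adjusted 0.0531) and rho = -0.782 (permutation p = 0.0153, adjusted 0.149), and r = -0.62 without ceAF-1 and ceAF-5. *Hmox1* and *Slc7a11*, the genes highest in DSS-1, had r = 0.865 (permutation p = 0.0112, adjusted 0.084) and rho = 0.709 (permutation p = 0.0278, adjusted 0.173), and r = 0.713 without DSS-1 and DSS-4. *Nfe2l2* and *Nqo1*, the factor and a widely used target, had r = 0.481 (permutation p = 0.15, adjusted 0.27) and rho = 0.455 (permutation p = 0.205, adjusted 0.355), and r = 0.849 without ceAF-1 and ceAF-5.

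**Figure D2:**
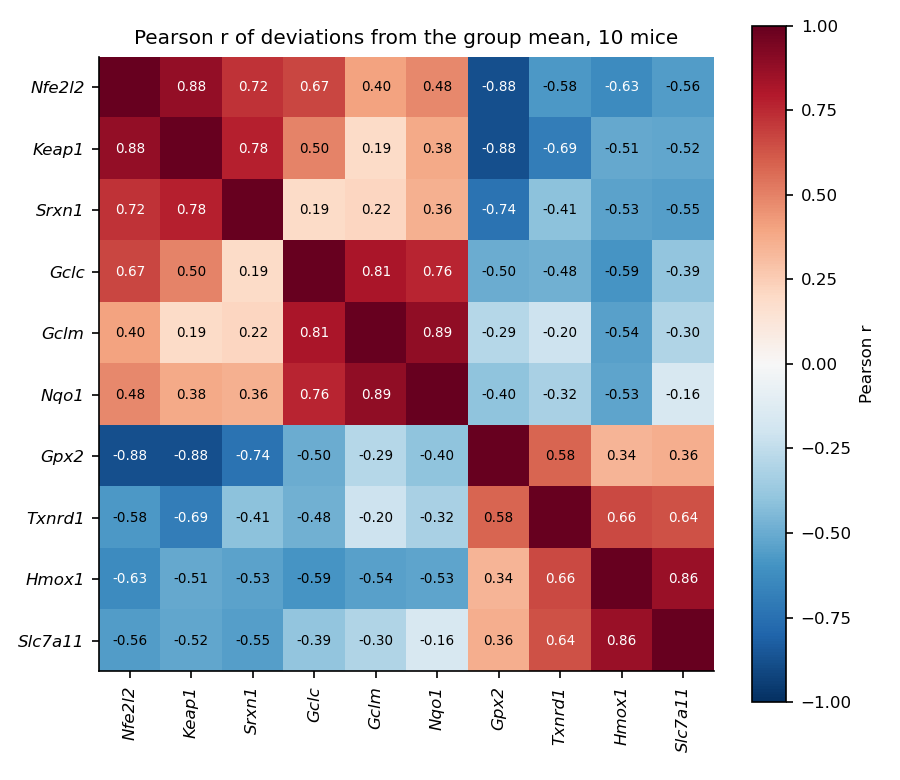
Pearson r between each pair of the 10 genes, from log2 CPM of 10 mice after removal of the group means; red is positive, blue is negative, and both axes list the genes. The 3 pairs among *Gclc*, *Gclm* and *Nqo1* have a positive r (0.76 to 0.889), as have the 3 among *Nfe2l2*, *Keap1* and *Srxn1* (0.725 to 0.875). In each trio 1 of 3 pairs passes the adjusted threshold. The r of *Nfe2l2* and *Srxn1* was 0.368 without ceAF-1 and ceAF-5, and that of *Keap1* and *Srxn1* 0.644 without ceAF-1 and ceAF-3. Of the negative pairs of *Gpx2* with both regulators, the 1 with *Keap1* passes.

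Each member was also compared with the scores of 13 marker lists, 130 relations in total, and none had an adjusted p under 0.05 for r. *Keap1* and the epithelium score had r = 0.77 (permutation p = 0.000417, adjusted 0.0542) and rho = 0.83 (permutation p = 0.000347, adjusted 0.0451), and r = 0.775 without DSS-5 and ceAF-5. *Nfe2l2* and the epithelium score had r = 0.734 (permutation p = 0.00118, adjusted 0.0572) and rho = 0.891 (permutation p = 0.00257, adjusted 0.166), and r = 0.703 without the same mice. *Hmox1* and the fibroblast score had r = 0.788 (permutation p = 0.00132, adjusted 0.0572) and rho = 0.83 (permutation p = 0.00438, adjusted 0.166), and r = 0.733 without DSS-1 and ceAF-1. These were the 3 relations with the lowest p for r, and the highest r were those of *Slc7a11* and *Hmox1* with markers high in DSS-1. *Slc7a11* and the fibroblast score had r = 0.917 (permutation p = 0.00632, adjusted 0.122) and rho = 0.903 (permutation p = 0.0147, adjusted 0.224), and r = 0.9 without DSS-1 and ceAF-1. *Slc7a11* and the neutrophil score had r = 0.906 (permutation p = 0.00458, adjusted 0.119) and rho = 0.842 (permutation p = 0.00535, adjusted 0.166), and r = 0.726 without the same mice. *Hmox1* and the neutrophil score had r = 0.885 (permutation p = 0.0105, adjusted 0.149) and rho = 0.758 (permutation p = 0.0276, adjusted 0.256), and r = 0.682 without them.

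Of 11531 other tested genes with a mean of at least 5 CPM, those most like each member across the 10 mice, by r after removal of the group means, were as follows. *Nfe2l2* was most like *Atl2*, *Adtrp* and *Fam162a* (r = 0.991, 0.983 and 0.982), and *Keap1* most like *Optn*, *Azi2* and *Zup1* (0.963, 0.959 and 0.956). *Nqo1* was most like *Hnrnph3*, *Zfp629* and *Ccdc39* (0.969, 0.949 and 0.943), and *Gclm* most like *Zfp629*, *Dph7* and *Gtf3c2* (0.964, 0.959 and 0.943), so that *Zfp629* was named for both. *Gclc* was nearest to *Amz2*, *Rpgr* and *Lpar6* (0.956, 0.945 and 0.928), and *Txnrd1* to *L3mbtl3*, *Adcy2* and *Uba2* (0.953, 0.94 and 0.911). *Srxn1* was nearest to *Sox13*, *Mrm1* and *Eif4h* (0.961, 0.961 and 0.945), and *Gpx2* to *Ddx20*, *Gart* and *Mybbp1a* (0.978, 0.974 and 0.973). *Hmox1* was most like *Lyst* (0.966), *Cd14* (0.956), a receptor for bacterial lipopolysaccharide on myeloid cells, and *Dennd5a* (0.94). *Slc7a11* was most like *S100a11* (0.978), *Mmp9* (0.974), a protease of neutrophils and macrophages, and *Plaur* (0.971). These r values were the highest of many and are given as a description over 10 mice.

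The genes around the members were read in 8 lists with 90 genes, of which 86 were tested. None had an adjusted p under 0.05 in edgeR, and 11 had an unadjusted p under 0.05 (12.8%, against 6.93% of all tested genes), 9 of them higher in ceAF and 2 lower. Fold changes were above 0 for 45 and below 0 for 41 of the 86.

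Other known Nrf2 targets, mostly enzymes of conjugation and reduction and export pumps, had fold changes of 1 sign. All 19 tested genes of this list had a fold change above 0, where 51.4% of all tested genes did, with a median log2 fold change of 0.52. Under the alternatives 15 to 19 of them were above 0, with a median between 0.24 and 0.64. The count was 15 under voom with quality weights, without ceAF-1 and without both DSS-1 and ceAF-1, and the median was lowest under voom. An unadjusted p under 0.05 was reached by 4 of 19 (21.1%), against 6.93% of all tested genes. With 1 mouse left out it was reached by 1 (without ceAF-5) to 7 (without DSS-2 or ceAF-4). The most abundant per length was *Cbr1*, a carbonyl reductase, at 90.4 FPKM. No test of the list as a whole was made, and the list was chosen with earlier results of these data known.

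*Gsta3*, a glutathione S-transferase, stood at 10.4, 20.3, 15.03, 17.7 and 13.9 CPM in DSS-1 to DSS-5 and at 13.6, 37.9, 33.9, 31.98 and 65.5 CPM in ceAF-1 to ceAF-5. Only ceAF-1 lay within the DSS range. *Gsta3* had a log2 fold change of 1.24 (SE 0.34), with an unadjusted p of 0.00374 and an adjusted p of 0.656 by edgeR, and the unadjusted p was under 0.05 whichever mouse was left out. *Akr1b8*, an aldo-keto reductase, stood at 43.6, 51.9, 31.7, 64.8 and 24.1 CPM in DSS and at 46.2, 69.8, 63.1, 78.6 and 140.0 CPM in ceAF, from mouse 1 to mouse 5. All 5 ceAF mice lay above the DSS median, with ceAF-5 far the highest. The log2 fold change was 0.88 (SE 0.322; edgeR adjusted p = 0.656), and without ceAF-5 it was 0.58. *Cbr3*, a further carbonyl reductase, was also highest in ceAF-5, at 114 CPM, where the other 9 mice lay between 12.8 and 47.8 CPM. Its log2 fold change was 1.16 (SE 0.464; edgeR adjusted p = 0.694), and 0.58 without ceAF-5. For *Gstm1*, a mu-class glutathione S-transferase, the mean was 85.1 ± 32.4 CPM in DSS and 138 ± 54.8 CPM in ceAF (SD, n = 5 each). Its log2 fold change was 0.70 (SE 0.298; edgeR adjusted p = 0.704), and 0.44 at the lowest with 1 mouse left out. The mouse ceAF-5 was thus the highest of all 10 for these 4 targets, as for *Gclm*, *Nqo1* and *Gpx2*. It also had the highest share of counts on mitochondrial genes, 9.74%, whose part in these values was not tested.

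NADPH drives both the glutathione and the thioredoxin cycle, and 5 of 6 genes of its supply had fold changes above 0, with 2 at an unadjusted p under 0.05, or 1 without DSS-1, DSS-3, DSS-5, ceAF-1 or ceAF-5, without both DSS-1 and ceAF-1, with the replicate block and with voom. With voom 4 of 6 were above 0 and the median log2 fold change was 0.05 in place of 0.22. The median was 0.1 without ceAF-4 and 0.12 without both DSS-1 and ceAF-1. *G6pdx* encodes glucose-6-phosphate dehydrogenase, which opens the pentose phosphate pathway. It stood at 62.9, 81.4, 69.0, 76.4 and 63.4 CPM in DSS-1 to DSS-5 and at 80.5, 102, 111, 83.5 and 89.99 CPM in ceAF-1 to ceAF-5. Only DSS-2 and ceAF-1 crossed, by less than 1 CPM. *G6pdx* had a log2 fold change of 0.40 (SE 0.118), with an unadjusted p of 0.0058 and an adjusted p of 0.656 by edgeR, and the unadjusted p was under 0.05 in all 21 alternatives. *Tkt*, the transketolase of the same pathway, had a mean of 259 ± 37.9 CPM in DSS and 322 ± 36.7 CPM in ceAF (SD, n = 5 each). Its log2 fold change was 0.31 (SE 0.125; edgeR adjusted p = 0.694), with an unadjusted p under 0.05 in 13 of 21 alternatives. The most abundant gene of the list per length was *Taldo1*, transaldolase, at 143 FPKM.

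The glutathione cycle beyond the ligase mostly had fold changes of the other sign. Of its 12 tested genes, 10 had fold changes below 0 and 2 above, several of them close to 0. The median log2 fold change was -0.1, and between -0.203 and -0.069 over the alternatives. An unadjusted p under 0.05 was reached by 2 (16.7%, against 6.93% of all tested genes), both lower in ceAF. With 1 mouse left out, 3 or 4 of the 12 were above 0, and 1 (without DSS-1, DSS-5 or ceAF-5) to 5 (without ceAF-1) had an unadjusted p under 0.05, all of them lower in ceAF. Without both DSS-1 and ceAF-1, 5 of the 12 were above 0 and 7 below. In that fit 4 had an unadjusted p under 0.05, all lower in ceAF. *Gpx1*, the ubiquitous cytosolic glutathione peroxidase, stood at 122, 85.5, 93.1, 116 and 95.5 CPM in DSS-1 to DSS-5 and at 75.4, 84.0, 70.1, 81.7 and 86.0 CPM in ceAF-1 to ceAF-5. All 5 ceAF mice lay below the DSS median, and ceAF-5 overlapped DSS-2 by less than 1 CPM. *Gpx1* had a log2 fold change of -0.37 (SE 0.117), with an unadjusted p of 0.00942 and an adjusted p of 0.656 by edgeR, and the unadjusted p was under 0.05 in all 21 alternatives. *Gpx1* was also the most abundant gene of the list, at 63.2 FPKM. *Gpx3*, the secreted peroxidase, had a mean of 59.5 ± 15.4 CPM in DSS and 37.9 ± 12.0 CPM in ceAF (SD, n = 5 each). Its log2 fold change was -0.65 (SE 0.251; edgeR adjusted p = 0.680), and the unadjusted p was over 0.05 without DSS-1, DSS-5 or ceAF-5.

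Of the 12 thioredoxins and peroxiredoxins, 4 had fold changes above 0 and 8 below, and 0 had an unadjusted p under 0.05. Thioredoxin 1, *Txn1*, was the most abundant, at 910.0 FPKM. The 5 superoxide dismutase and catalase genes, led by *Sod1* at 40.5 FPKM, and the 7 heme and iron genes, led by the ferritin light chain *Ftl1* at 637 FPKM, likewise had 0 at an unadjusted p under 0.05. Among 13 partners and regulators of Nrf2, 7 were above and 6 below 0, with 0 at that threshold and a median log2 fold change of 0.00. Without ceAF-1 the count at that threshold was 3 among the thioredoxins and peroxiredoxins, 2 among the heme and iron genes and 1 each among the dismutase and catalase genes and the partners and regulators. With voom the counts were 3, 2, 1 and 1 in the same order, and without both DSS-1 and ceAF-1 they were 3, 2, 2 and 1. The FPKM fits gave 2 thioredoxins or peroxiredoxins, and upper quartile or relative log expression scaling, DESeq2, no filter and the replicate block gave 1, all lower in ceAF. Leaving out DSS-2 gave 1 thioredoxin or peroxiredoxin, and leaving out DSS-2, DSS-4 or ceAF-4 gave 1 partner or regulator, at that threshold. With *Hoxb6* as a covariate 1 dismutase or catalase gene and 1 partner or regulator were at it. With no filter 1 partner or regulator was. The most abundant partner or regulator was *Sqstm1*, whose product p62 binds Keap1, at 83.5 FPKM.

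Enzymes that make oxidants had fold changes of both signs. The list of 14 had 12 tested genes, 5 above and 7 below 0, and 3 had an unadjusted p under 0.05, all higher in ceAF. With DESeq2 or without a filter the count was 3 higher and 2 lower, with voom 2 higher and 1 lower, and with *Hoxb6* as a covariate 1 higher and 2 lower. With 1 mouse left out the count was 1 (without DSS-1, DSS-3 or ceAF-4) to 4 (without DSS-5), and it held 2 lower genes without DSS-2, DSS-4 or DSS-5 and 1 without ceAF-5. The genes counted with all 10 mice were *Nox1*, the epithelial NADPH oxidase of the colon, and its organizer and activator subunits *Noxo1* and *Noxa1*. *Noxo1* stood at 3.36, 4.05, 4.31, 4.04 and 3.72 CPM in DSS-1 to DSS-5 and at 6.26, 4.95, 5.10, 5.97 and 6.60 CPM in ceAF-1 to ceAF-5, so that the groups did not overlap. Its log2 fold change was 0.57 (SE 0.16), with an unadjusted p of 0.00461 and an adjusted p of 0.656 by edgeR, and the unadjusted p was under 0.05 in all 21 alternatives. *Nox1* had a log2 fold change of 1.17 (SE 0.528; edgeR adjusted p = 0.717), and *Noxa1* of 0.49 (SE 0.219; edgeR adjusted p = 0.717). Their unadjusted p was under 0.05 in 9 and 6 of 21 alternatives. *Nox1* was lowest in ceAF-1, at 5.04 CPM, and highest in ceAF-5, at 62.4 CPM. *Duox2* was the most abundant gene of this list, at 112 FPKM.

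**Figure D3:**
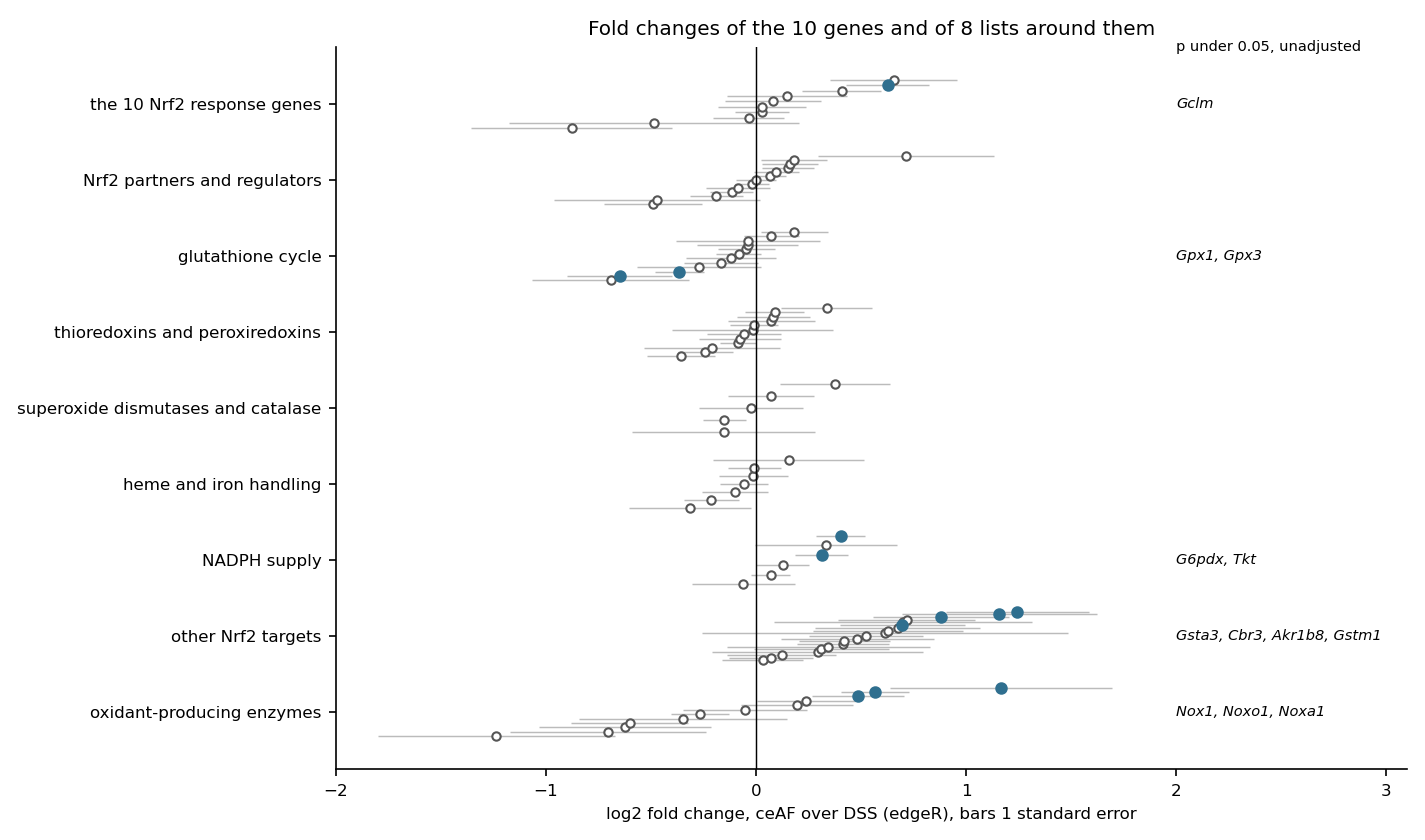
Log2 fold change of ceAF over DSS from edgeR for the 10 genes and for the tested genes of 8 lists around them; each circle is a gene, each bar 1 SE, and filled circles, named at the right, have an unadjusted p under 0.05. All 19 tested genes among other Nrf2 targets lie to the right of 0, while 10 of 12 genes of the glutathione cycle lie to the left. The lists were chosen with earlier results of these data known.

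Since *Nqo1* and *Gclm* were the pair of members with the highest r, the letters of the antioxidant response element core, TGACNNNGC, were searched on both strands of the promoter windows of RefSeq (GRCm38.p6), 250 bases before to 50 after each gene start. Of all 32851 windows, 12.4% held at least 1 match. Windows were found for 8 of the 10 members, not for *Hmox1* and *Gclc*, and there were 3 for *Txnrd1*. Of these 10 windows 4 held a match, those of *Nfe2l2*, *Gclm*, *Srxn1* and 1 of *Txnrd1*. The match of *Srxn1* lay 28 bases after the start. The other 3 are printed with 10 bases on each side, since *Gclm* was the member with the lowest p and *Nfe2l2* and *Txnrd1* are its comparison. Capitals mark the match, and the sequences read 5′ to 3′ on the strand of the gene.
*Gclm*, chr3:122245413-122245441, plus strand, match on the opposite strand beginning 134 bases before the start: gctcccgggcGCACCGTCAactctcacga
*Nfe2l2*, chr2:75704885-75704913, minus strand, match on the gene's own strand beginning 240 bases before the start: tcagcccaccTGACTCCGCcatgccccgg
*Txnrd1*, chr10:82859104-82859132, plus strand, match on the opposite strand beginning 92 bases before the start: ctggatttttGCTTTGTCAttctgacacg
The windows of *Nqo1*, *Keap1*, *Slc7a11* and *Gpx2* did not hold these letters. A match is a description of the window and says nothing on binding, and of *Gclm* and *Nqo1* the first had a match and the other had none.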

How the data were processed

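Poly(A) RNA of 10 colon samples, 5 per group, was sequenced for the authors. The submitters' processing notes name cutadapt 1.9.1 and HISAT2 2.2.1; the counting program and genome build are not given in the sources used here. The authors deposited, for each gene and mouse, a read count without normalization and an FPKM value. Each FPKM equals the count scaled by exonic length and library total, for 100% of values within rounding, so both share any reads lost or split between similar genes.

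Genes were kept by filterByExpr (minimum count 10), scaled by TMM and compared with the two-sided quasi-likelihood test of edgeR 4.0.16 in R 4.3.3, with Benjamini-Hochberg adjustment over all genes kept. CPM values are TMM-normalized, and 1 was added as prior count before log2. For single genes, a two-sided exact permutation test went through every way to assign 5 of 10 mice, so that 0.00794 was the smallest p possible. A marker score is the mean over a list's tested genes of log2 CPM relative to each gene's mean over the mice. The marker lists were epithelium, crypt base, neutrophil, macrophage, T cell, B cell and plasma cell, fibroblast, smooth muscle, endothelium, enteric glia and neuron, erythroid, squamous epithelium and *Hox* genes. Besides all members, the text names each pathway list's most abundant gene and its genes at an unadjusted p under 0.05, up to 6 by p, and for each member the 3 genes of highest r. The members and lists were chosen with earlier results of these data known.

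Alternatives used upper quartile or relative log expression scaling, DESeq2 1.42.0, limma 3.58.1 (voom with quality weights, and trend fits on FPKM above 0.1 with pseudocounts of 1 and 0.1), other filters, the replicate number as a block, *Hoxb6* as a covariate and each mouse left out. No 2 libraries of a group were copies: over the 20 pairs, the chi-square per gene was at least 13.2. Plots were made in Python 3.11.15 with matplotlib 3.10.9.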

Additional observations from a re-analysis of the deposited data

Results flagged for a closer look

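The highest or lowest mouse of each group was compared with its nearest neighbour, as the gap divided by the range of the group, for the 10 members, the total count and 13 marker scores. In 5 of 48 such groups the gap passed the limit of 0.71 for 5 samples, where chance gives about 1 in 20 (2.4 groups). Among the members, *Slc7a11* in DSS-1 lay above the other DSS mice by 0.867 of the range. DSS-1 was also far above its group in the B cell and plasma cell score (0.841) and the fibroblast score (0.873). DSS-5 lay far below the other DSS mice in the T cell score (0.915). DSS-2 had the highest total count of its group (0.908), at 19901549. The part of these libraries in the members' values was examined only by leaving out each mouse, by leaving out DSS-1 with ceAF-1, and by quality weights.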

How the results depend on the processing

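Under 21 alternatives, 0 members had an adjusted p under 0.05. *Gclm*, *Gclc* and *Nqo1* were higher in ceAF and *Hmox1* lower in all 21. For *Hmox1* the log2 fold change was close to 0 in some, at -0.02 without both DSS-1 and ceAF-1. The count of genes called, 0 with edgeR, was 26 with DESeq2, 1 with log2(FPKM + 1) and 5 with log2(FPKM + 0.1), and 0 to 3 with 1 mouse left out, 3 without DSS-5. The count at an unadjusted p under 0.05, 1146 of 16545 tested (6.93%), was 2452 with voom (14.8%), 1733 of 32504 without a filter (5.33%) and 694 with the replicate block (4.19%). With 1 mouse left out it lay between 712 (4.26%, without DSS-1) and 1872 (11.2%, without ceAF-1). The count of members at that threshold, 1 of 10, was 2 with DESeq2 (4.84% of all tested genes), 0 with voom (14.8%), 3 without a filter (5.33%), 3 with *Hoxb6* as a covariate (9.02%), 2 without both DSS-1 and ceAF-1 (8.76%), and 1 to 3 with 1 mouse left out, 3 without DSS-4 (5.68%) or ceAF-2 (7.05%). The median of the members was -0.04 to 0.11 with 1 mouse left out, below 0 without ceAF-1, and 0.17 without both mice.

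Small fold changes turned in sign. *Nfe2l2* was -0.18 with voom, -0.23 without both DSS-1 and ceAF-1, and -0.16 to 0.20 with 1 mouse left out. *Keap1* was -0.13 with voom, -0.037 and -0.041 with the FPKM fits (pseudocounts 1 and 0.1), -0.017 with the replicate block, -0.19 without both mice, and -0.15 to 0.14 with 1 left out. *Slc7a11* was 0.24 with voom, 0.11 with the replicate block, 0.93 without both mice, and -0.92 to 0.69 with 1 left out. *Gpx2* was -0.013 with *Hoxb6* as a covariate. With 1 mouse left out, *Txnrd1* was -0.04 to 0.085 and *Srxn1* -0.174 to 0.048. Beyond the libraries named, the cause was not tested. With both FPKM pseudocounts the same 5 of 9 pairs of neighbours in level had an adjusted p under 0.05. Fits without both mice were chosen after seeing the data.

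Same-numbered mice share a number in the labels, which do not say what it stands for. Their deviations correlated between -0.249 and 0.286, over 0.1 in 1 of 5 pairs. Of 5 DSS mice 1 correlated best with its own number. Whether same-numbered mice shared a handling step was not tested. With the replicate block, 694 genes had an unadjusted p under 0.05 and 0 were called. With 5 mice per group, *Hmox1* and *Slc7a11*, from 50 counts per mouse upward, carry the largest counting error of the members.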

Other observations

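Other marker lists were read in the same colon pieces, as counts of tested genes whose edgeR fold change was above or below 0. Of 12 epithelial markers 6 were above and 6 below 0, with 0 at an unadjusted p under 0.05 and a median log2 fold change of 0.00. All 9 macrophage markers were below 0, 2 of them at that threshold, with a median of -0.51, and that count was 0 in 8 of 21 alternatives and 4 with *Hoxb6* as a covariate. All 5 B cell and plasma cell markers, 7 fibroblast, 7 smooth muscle and 5 endothelial markers were also below 0, with 0 at the threshold in each list. These directions turned with the setting: without DSS-1, 4 of 5 B cell and plasma cell and 5 of 7 fibroblast markers were above 0, and without both DSS-1 and ceAF-1, 4 of 5 endothelial markers were. Above 0 were also 4 of 7 fibroblast and 6 of 7 smooth muscle markers with voom, and 4 of 7 smooth muscle markers without DSS-5, without ceAF-3 or without both mice. Of 5 enteric glia and neuron markers 4 were below 0 and 1 above, or 2 below and 3 above with voom or without DSS-1. Both tested erythroid markers were below 0, with 0 at the threshold, though both were at it in 9 of 21 alternatives. Of 5 crypt base markers 3 were above 0, and *Axin2*, a Wnt target, was the 1 at the threshold, with a log2 fold change of 0.64 (SE 0.287; edgeR adjusted p = 0.717), and the list's count at the threshold was 0 in 12 of 21 alternatives. Both tested squamous markers were above 0 at levels up to 6.03 CPM, and 1 of them below 0 without ceAF-4. Of 7 *Hox* genes 4 were above 0, or 2 to 6 over the alternatives, and *Hoxd13* was the 1 at the threshold, at 121 and 109 CPM in ceAF-2 and ceAF-3 and at most 10.5 CPM in the other 8 mice; the list's count at the threshold was 0 in 10 of 21 alternatives. By edgeR with all 10 mice no adjusted p of these lists was under 0.05, and the part of cell makeup in the members' values was not tested.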
